A study of Mus musculus with 6 samples.

Results

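Toll-like receptors are the membrane receptors with which innate immune cells sense microbial products and released nucleic acids. They are described here in MLL-AF10 leukemia cells of the mouse, named for the gene fusion they carry, with and without an inhibitor of the IKK kinases. The genes were taken as the probe sets annotated to 10 listed receptors, 5 that sense nucleic acids in endosomes (Tlr3, Tlr7, Tlr8, Tlr9 and Tlr13) and 5 that act at the cell surface (Tlr1, Tlr2, Tlr4, Tlr5 and Tlr6). Of the 10, 9 were analysed, all 5 endosomal and 4 surface receptors, among 19847 genes tested in all. Tlr5, the flagellin receptor, is not analysed here. Each of the 9 was read by 1 probe set.

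The cells were grown in RPMI with serum and WEHI-conditioned medium, and both groups carry the fusion. Vehicle-treated cells gave 3 samples and cells treated with an IKK inhibitor at 0.5 µM gave 3 more, each on its own whole-transcript array. Which compound it was, how long it acted and how the line was made are not stated in the labels. Nor do they say whether samples of a group were separate cultures, so the spread behind each p-value may be technical. Precision is limited by having 6 arrays.

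Array medians of intensity lay between 112 and 124. Correlations of log2 intensity across genes lay between 0.993 and 0.997 within a group and between 0.988 and 0.991 between groups. Myeloid markers were read in both groups: with vehicle the lysozyme gene Lyz2 averaged 4046 and the integrin gene Itgam 1446. The table has no detection calls, so no reading was called present or absent, and intensities of different probe sets cannot be set against each other.

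A Toll-like receptor binds its ligand with a horseshoe of leucine-rich repeats and signals through a cytoplasmic TIR domain. The adaptor Myd88, or Ticam1 for Tlr3 and part of the Tlr4 response, passes the signal to IRAK and TRAF proteins and on to IKK and IRF factors. IKK releases NF-kB from its inhibitors, so the labelled target of the compound lies downstream of every receptor described here. The endosomal receptors need the chaperone Unc93b1 to leave the endoplasmic reticulum and are trimmed by endolysosomal proteases before they signal.

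Endosomal receptor genes rose with the inhibitor in 4 of 5 cases. Tlr8, Tlr13, Tlr7 and Tlr3 passed a Benjamini-Hochberg adjusted p of 0.05 in limma over all genes tested, and Tlr9 did not. Among the surface receptors, Tlr2 and Tlr6 rose, and Tlr4 and Tlr1 did not pass. The 6 receptor genes called higher out of 9 stand beside 7.1% of all genes tested that were called higher, and 13.9% that were called in either direction. No receptor gene was called lower by limma, and at an unadjusted p under 0.05 the count of lower members was also 0, against 7 higher, beside 13.9% and 13.3% of all genes tested.

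The inhibitor arrays all read above the vehicle arrays for 7 of the 9 receptor genes, an arrangement found in 15.7% of all genes tested. The median log2 fold change was 0.57 over the 9 receptor genes and 0.01 over all genes tested. The arrays measured RNA of whole samples, in which fewer cells of a type and less RNA per cell cannot be told apart.

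**Figure D1:**
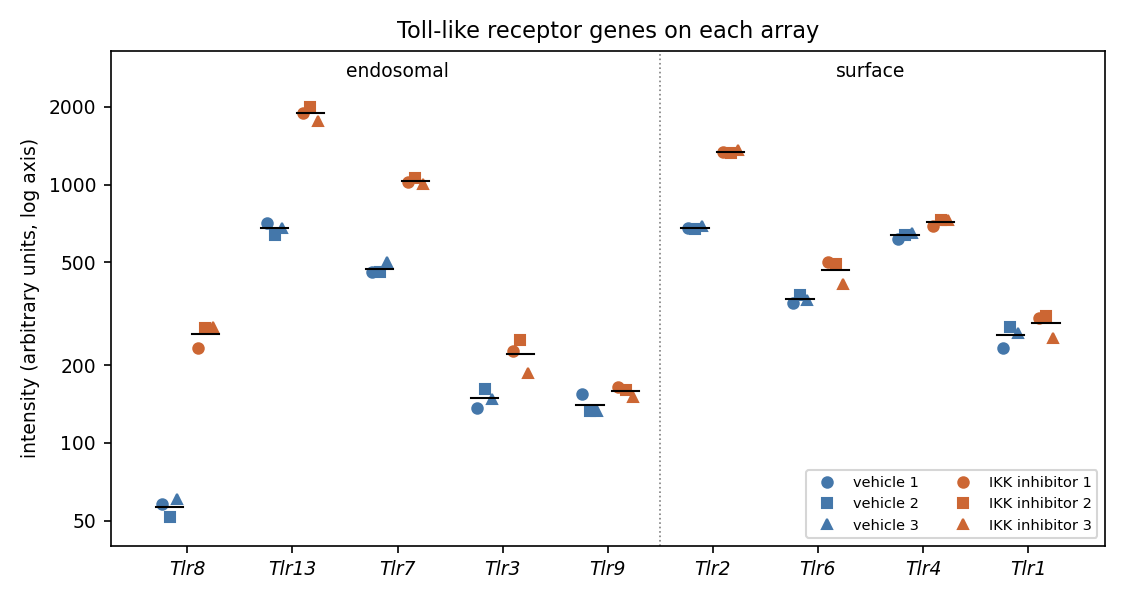
Intensity of the 9 receptor genes (log axis, arbitrary units) on the 3 vehicle arrays (blue) and the 3 IKK inhibitor arrays (orange), with black bars at the group means and a dotted line between endosomal and surface receptors. The groups lie apart for Tlr8, Tlr13, Tlr7, Tlr3, Tlr2, Tlr6 and Tlr4 and overlap for Tlr9 and Tlr1.

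Tlr8, an endosomal receptor for RNA degradation products, changed most. Its intensity was 58.0, 51.5 and 60.6 on the vehicle arrays and 232, 279 and 279.9 on the inhibitor arrays. The groups lay far apart. The log2 fold change was 2.22 ± 0.10 (SE, n = 3 each), or 4.64-fold (95% interval 3.96 to 5.45), with a limma adjusted p of 7.05e-05. Among the 19847 genes tested it had the rise of rank 7. The vehicle readings of Tlr8 lay below the median of all array values, 118, so the size of its change depends on how low values are treated: it was 1.94 on the log2 of intensity plus 16, the lowest of the settings tried.

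Tlr13, which recognises bacterial ribosomal RNA and has no human counterpart, rose from 713, 638 and 678 with vehicle to 1899, 1998 and 1764 with the inhibitor. The groups did not overlap. On the log2 scale it rose by 1.48 ± 0.07 (SE, n = 3 each), a change of 2.79-fold (95% interval 2.49 to 3.12) and of rank 50 among all genes tested, with a limma adjusted p of 8.08e-05.

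Tlr7, a receptor for single-stranded RNA, lies next to Tlr8 on the X chromosome, with no protein-coding gene between them in the RefSeq gene table (assembly GRCm38.p6). Tlr7 read 458, 461 and 501 with vehicle and 1025, 1059 and 1005 with the inhibitor. Its readings with the inhibitor varied little and lay far above all 3 vehicle readings. It rose by 1.12 ± 0.06 on the log2 scale (SE, n = 3 each), a change of 2.18-fold (95% interval 1.98 to 2.39), with a limma adjusted p of 1.01e-04. The 95% intervals of the log2 fold changes of these neighbours, 1.98 to 2.45 for Tlr8 and 0.99 to 1.26 for Tlr7, did not meet. The calls of Tlr8, Tlr13 and Tlr7 held in each alternative in which they could be tested.

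Tlr3, the endosomal receptor for double-stranded RNA and the receptor that signals through Ticam1 alone, changed less. It read 137, 161 and 148 with vehicle and 228, 251 and 186 with the inhibitor. The lowest inhibitor reading, on array 3, lay above the highest vehicle reading, on array 2, by a smaller margin than the spread among the inhibitor arrays. The log2 fold change was 0.57 ± 0.12 (SE, n = 3 each) and the limma adjusted p 0.0239. Leaving out vehicle array 1, 2 or 3 or inhibitor array 1 ended the call (adjusted p = 0.0758, 0.0565, 0.0793 and 0.0854), whereas without inhibitor array 3 the adjusted p was 0.015. In the fits without vehicle array 1, 2 or 3 or inhibitor array 1 its log2 fold change was 0.51, 0.63, 0.57 and 0.54. Of all genes, 7.88%, 5.98%, 6.17% and 6.43% were called in those fits, against 13.9% over all arrays. Over all 18 alternatives the adjusted p of Tlr3 ranged from 0.0015 to 0.0854.

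Tlr9, the endosomal receptor for unmethylated CpG DNA, was the endosomal member that did not pass. Its intensity was 155, 132 and 132 with vehicle and 165, 161 and 150.4 with the inhibitor, and the groups overlapped through vehicle array 1. The log2 fold change was 0.18 ± 0.08 (SE, n = 3 each) with a 95% interval of -0.0027 to 0.37 and a limma adjusted p of 0.19. That interval ends below the lowest bounds of Tlr7, Tlr8 and Tlr13 and overlaps that of Tlr3 (0.28 to 0.85). With array weights Tlr9 was called (adjusted p = 0.0483), within a range of 0.0483 to 0.434 over the alternatives.

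**Figure D2:**
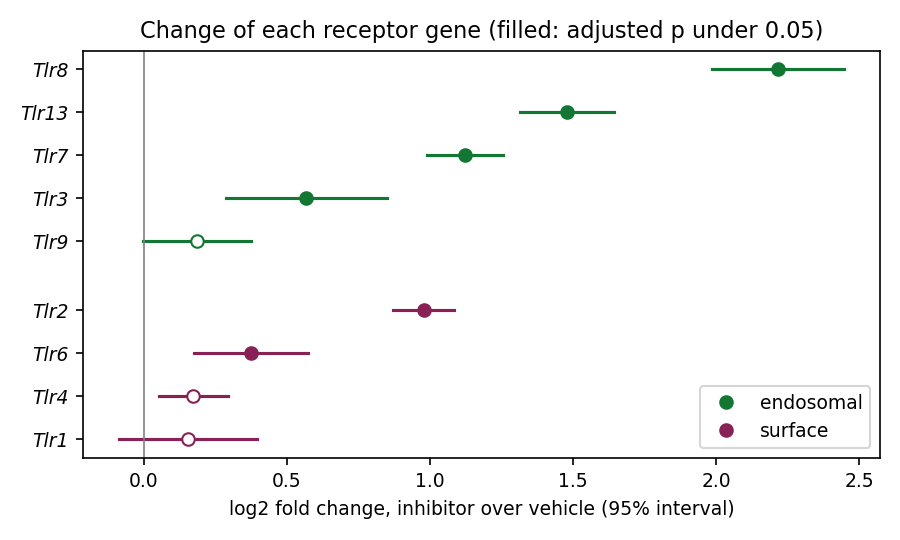
Log2 fold change of inhibitor over vehicle for each receptor gene with its 95% interval from limma, endosomal receptors in green and surface receptors in purple, filled where the adjusted p was under 0.05. Tlr8 stands at 2.22, Tlr13 at 1.48, Tlr7 at 1.12 and Tlr2 at 0.98, and the other 5 lie between 0.16 and 0.57.

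Tlr2 was the surface receptor that changed most. It senses bacterial lipoproteins as a dimer with Tlr1 or Tlr6. Its intensity was 677, 675 and 692 with vehicle and 1339, 1331 and 1357 with the inhibitor, narrow groups that lay far apart. This rise of 0.98 ± 0.04 on the log2 scale (SE, n = 3 each) was 1.97-fold (95% interval 1.83 to 2.12) and of rank 138, with a limma adjusted p of 7.68e-05.

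The dimer partners of Tlr2 had 95% intervals wholly below its own of 0.87 to 1.08, at 0.17 to 0.57 for Tlr6 and -0.09 to 0.40 for Tlr1. Tlr6 read 348, 375 and 359 with vehicle and 502, 491 and 413 with the inhibitor. Its groups did not overlap, and inhibitor array 3 was the lowest of its group. It rose by 0.37 ± 0.08 on the log2 scale (SE, n = 3 each), with a limma adjusted p of 0.0307. Leaving out any vehicle array ended the call (adjusted p = 0.0937 without array 1, 0.0789 without 2 and 0.0988 without 3), as did leaving out inhibitor array 1 (0.103) or 2 (0.0623) or centring arrays on their medians (0.0573). Over the 18 alternatives the log2 fold change of Tlr6 stayed between 0.32 and 0.46, and its adjusted p ranged from 0.0018 to 0.103.

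Tlr1 read 234, 282 and 266 with vehicle and 306, 309.7 and 256 with the inhibitor, with overlapping groups. Its log2 fold change was 0.16 ± 0.10 (SE, n = 3 each; 95% interval -0.09 to 0.40) with a limma adjusted p of 0.395. The Tlr1 and Tlr6 genes are neighbours on chromosome 5 and similar in sequence. Probe sequences were not compared, so reading of each by the probes of the other was not tested.

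Tlr4, the lipopolysaccharide receptor, read 615, 639.9 and 652 with vehicle and 691, 729 and 729.9 with the inhibitor. All 3 inhibitor readings lay above the vehicle readings, but the distance was small. The log2 fold change was 0.17 ± 0.05 (SE, n = 3 each; 95% interval 0.05 to 0.29), and the limma adjusted p of 0.0729 did not pass. Tlr4 was called in 4 of 18 alternatives, with a floor of 64 (adjusted p = 0.0383), both filters on dim genes (0.0388 and 0.0154) and an intensity trend with robust prior (0.0151), in a range up to 0.383.

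The endosomal and surface classes were set side by side as a description, without a test. The median log2 fold change was 1.12 over the 5 endosomal genes and 0.27 over the 4 surface genes, a difference of 0.85. Taken on each array as the median log2 deviation from the vehicle means, the endosomal minus surface difference was 0.08, -0.11 and -0.02 on the vehicle arrays and 0.76, 0.81 and 0.89 on the inhibitor arrays. The vehicle values lie near 0 because the deviations are from the vehicle means. All inhibitor values lay above all vehicle values. The pooled SD over arrays of 0.083 describes scatter between arrays, not between the genes of a class. The classes were not separate gene by gene, since Tlr9 lay below Tlr2 and Tlr6, and Tlr2 above Tlr3. Without Tlr8 the endosomal median was 0.85, and without Tlr2 the surface median was 0.17.

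**Figure D3:**
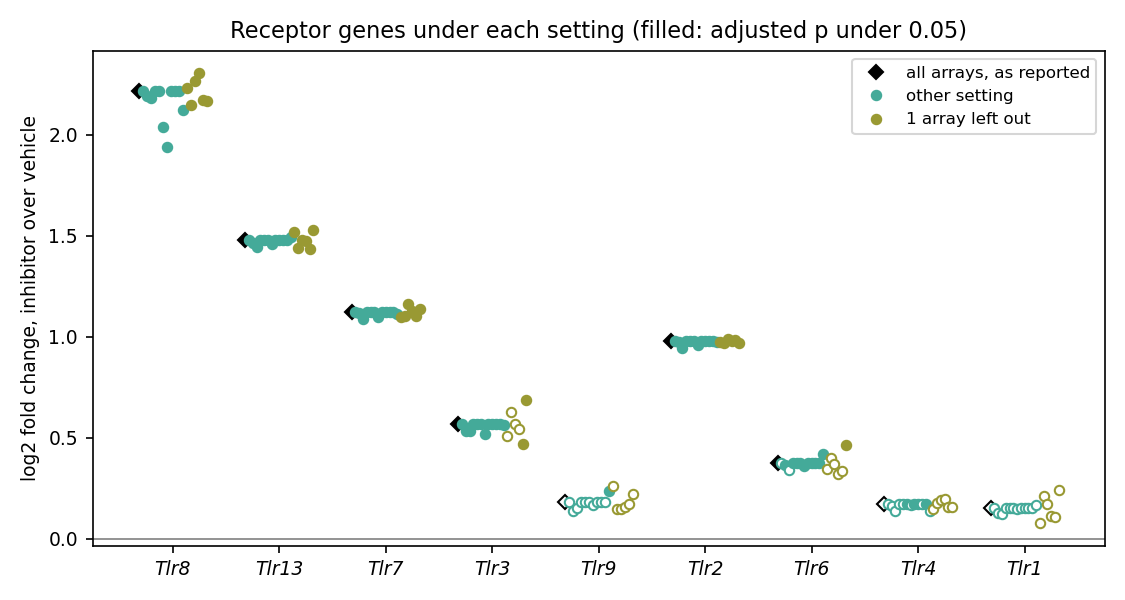
Log2 fold change of each receptor gene over all arrays (black diamond), under other settings (turquoise) and with 1 array left out (olive), filled where the adjusted p was under 0.05. Tlr8, Tlr13, Tlr7 and Tlr2 are filled throughout, Tlr3 and Tlr6 lose calls when an array is left out, and Tlr1 is filled in none.

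The sequence before the start of the receptor genes was searched because IKK, the labelled target of the compound, belongs to the NF-kB pathway. Whether the pathway was inhibited in these cells was not tested. RefSeq promoters (GRCm38.p6) were matched for 8 of the 10 receptor genes, in 10 promoter entries, and the 250 bases before each annotated start were used. The 10-letter kappa B consensus was looked for on both strands. It occurs in 7.25% of all 32851 promoter entries of the same length. Among the receptor genes searched it was found before Tlr2 and Tlr3. Tlr4 and Tlr7 were not searched. The 4 sequences below are those of Tlr2 and Tlr3, with the matches in capitals, and of Tlr8 and Tlr13, the largest rises, which have no match in this window. They are written 5′ to 3′ on the strand of the gene, Tlr2 at chr3:83841609-83841858 (minus strand), Tlr3 at chr8:45410381-45410630 (minus), Tlr8 at chrX:167264330-167264579 (minus) and Tlr13 at chrX:106143025-106143274 (plus).
Tlr2: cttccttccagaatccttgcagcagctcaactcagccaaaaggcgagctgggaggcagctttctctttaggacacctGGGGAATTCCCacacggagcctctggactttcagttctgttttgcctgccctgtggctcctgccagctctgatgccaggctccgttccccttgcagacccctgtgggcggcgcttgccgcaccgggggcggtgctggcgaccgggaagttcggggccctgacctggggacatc
Tlr3: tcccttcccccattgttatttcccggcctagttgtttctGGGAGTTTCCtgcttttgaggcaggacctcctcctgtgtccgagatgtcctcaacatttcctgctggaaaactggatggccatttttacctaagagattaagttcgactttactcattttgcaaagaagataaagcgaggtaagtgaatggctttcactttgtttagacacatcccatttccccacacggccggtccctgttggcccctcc
Tlr8: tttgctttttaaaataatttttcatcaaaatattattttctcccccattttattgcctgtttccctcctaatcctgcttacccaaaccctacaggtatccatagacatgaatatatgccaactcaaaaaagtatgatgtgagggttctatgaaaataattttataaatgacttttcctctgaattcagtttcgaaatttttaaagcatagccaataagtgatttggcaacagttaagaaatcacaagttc
Tlr13: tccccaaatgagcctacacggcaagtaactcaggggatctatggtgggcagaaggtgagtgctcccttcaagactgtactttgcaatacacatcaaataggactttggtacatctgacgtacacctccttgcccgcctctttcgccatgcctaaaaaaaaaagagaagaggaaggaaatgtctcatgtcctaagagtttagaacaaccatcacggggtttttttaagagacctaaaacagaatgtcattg

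The capitals of Tlr2 are 2 overlapping matches, which begin 173 and 172 bases before the start, and those of Tlr3 are 1 match that begins 211 bases before it. On the log2 scale Tlr2 and Tlr3 rose by 0.98 and 0.57. The analysed genes without a match had log2 fold changes of 2.22 (Tlr8), 1.48 (Tlr13), 0.37 (Tlr6), 0.18 (Tlr9) and 0.16 (Tlr1), values on both sides of those of Tlr2 and Tlr3. A match describes letters only, and a missing match says nothing of binding elsewhere.

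Genes that serve the receptors were followed in 10 lists with 112 genes, of which 103 were tested. In all, 36 were called higher and 10 lower, beside 7.1% and 6.75% of all genes tested. The same shares apply to the count of each list below. At an unadjusted p under 0.05 they were 13.3% higher and 13.9% lower. Tlr12, a further endosomal receptor of the mouse, averaged 60.9 with vehicle and 61.3 with the inhibitor and did not pass (log2 fold change 0.01), and Tlr11 is not analysed here.

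Of the 9 chaperone and trafficking genes tested, 2 were higher and none lower, with a median log2 fold change of 0.08. At an unadjusted p under 0.05 the counts were 4 and 1. Unc93b1, which escorts the endosomal receptors, rose from 1733, 1738 and 1709 to 2149, 2116 and 2251, a log2 fold change of 0.33 ± 0.05 (SE). All 3 inhibitor readings lay above the vehicle readings. Rab11a, a recycling endosome GTPase, rose by 0.28 (limma adjusted p = 0.0214), but it was no longer called when vehicle array 1, 2 or 3 (0.0727, 0.0804 and 0.058) or inhibitor array 1 or 3 (0.0819 and 0.0608) was left out, so that 1 gene of the list was then called, or with median centring (0.0844). The general chaperone Hsp90b1 (-0.02) and its partner Cnpy3 (-0.10), both needed for the folding of Toll-like receptors and named after their values were seen, did not pass.

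Among endolysosomal proteases and nucleases 6 of 9 rose and none fell, with a median of 0.33. None was lower at an unadjusted p under 0.05 either. The largest change was that of Ctss, the protease cathepsin S, from 325, 369.7 and 326 to 954, 1051 and 1307, a log2 fold change of 1.69 ± 0.12 (SE). Cathepsin B (Ctsb) rose by 0.51, and the lysosomal nucleases Pld3 and Pld4, which degrade ligands of Tlr9 and of RNA-sensing receptors, by 0.37 each. Furin rose by 0.33. Cathepsin K (Ctsk) was called with a rise of 0.26, but not without vehicle array 1 or 2 or inhibitor array 1 (adjusted p = 0.0505, 0.0621 and 0.0526 by limma), nor with quantile or median scaling of the arrays (0.0505 and 0.117) or an intensity trend (0.052). Asparagine endopeptidase (Lgmn, 0.14) and cathepsin L (Ctsl, 0.02), named after their values were seen, did not pass.

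Of 4 endolysosomal transporters and the adaptor gene Tasl, 2 transporters were called higher and Tasl lower over all arrays. Slc15a3, a peptide and histidine transporter, read 177, 177 and 185 with vehicle and 503, 547 and 588 with the inhibitor, a log2 fold change of 1.60 ± 0.07 (SE, limma adjusted p = 7.05e-05). Its relative Slc15a4, the partner of the adaptor TASL in Tlr7 and Tlr9 signalling, stood at -0.01 and did not pass. Tasl fell by 0.30 (adjusted p = 0.0454), a call that ended when vehicle array 1, 2 or 3 (0.106, 0.144 and 0.124) or inhibitor array 1 (0.0779) was left out, and with median centring (0.0539). Sidt2 rose by 0.28 (adjusted p = 0.0121), but not without vehicle array 3 (0.0591) or with median centring (0.0783).

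Surface co-receptors rose in 3 of 6 cases and fell in none, with a median of 0.45. At an unadjusted p under 0.05 the counts were 5 higher and 0 lower. Ly96, which binds lipopolysaccharide together with Tlr4, rose from 1018, 947 and 981 to 1934, 1895 and 1837, a log2 fold change of 0.94 ± 0.05 (SE), beside 0.17 for Tlr4 itself. Cd14, which hands lipopolysaccharide to this pair, rose by 0.76 ± 0.07. Cd36, a co-receptor for Tlr2 with Tlr6, rose by 0.79 from a low mean of 40.5 to 70.4, and a floor of 64 ended its call (adjusted p = 0.183). Cd180, a relative of Tlr4, and its partner Ly86 had log2 fold changes of 0.14 each and did not pass.

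Adaptors and kinases between the receptors and NF-kB changed little. Of 18 tested, 3 rose and none fell by limma, at an unadjusted p under 0.05 there were 4 and 0, and the median was 0.02. The IKK-related kinase gene Ikbke rose by 0.52, Irak2 by 0.43 and the adaptor gene Pik3ap1 by 0.39. Myd88 had a log2 fold change of -0.02 ± 0.06 (SE) and Ticam1 of -0.02 ± 0.06, and neither passed. Irak4 is not analysed here.

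Of 6 NF-kB and IRF factors tested, 2 IRF factors rose and 1 fell. Irf5, which acts below Myd88 in cytokine induction, rose from 216, 241 and 226 to 331, 357 and 370.5, a log2 fold change of 0.63 ± 0.07 (SE). Irf8, a myeloid IRF factor, rose by 0.68 ± 0.06. Irf7, the factor that drives type I interferon genes below Tlr7 and Tlr9, fell from 343, 357 and 380.3 to 205, 240.2 and 195, by 0.76 ± 0.09 on the log2 scale. For each of the 3 the groups did not overlap, and the counts of 2 higher and 1 lower held in every alternative. Irf3 (-0.07), Irf1 (0.0018) and Rela (0.04), named after their values were seen, did not pass.

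Inhibitors of receptor signalling were higher in 6 of 17 cases and lower in none over all arrays, with 10 and 1 at an unadjusted p under 0.05 and a median of 0.14. Zc3h12a, an RNase that degrades cytokine mRNA, rose by 0.84 ± 0.05 (SE) and Irak3, a kinase-dead IRAK protein that blocks Myd88 signalling, by 0.59 ± 0.05. Tnfaip3 rose by 0.46, Tnip1 by 0.44 and Nfkbia by 0.36. Tnip3 rose by 0.42 (limma adjusted p = 0.0284), a call that ended when vehicle array 1, 2 or 3 (0.0815, 0.106 and 0.0741) or inhibitor array 1 or 2 (0.1 and 0.0526) was left out.

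Genes of nucleic acid sensing in the cytosol, a list that includes the adaptor genes Mavs and Sting1, fell where they changed. Of 12 tested, 7 were lower and none higher, with a median of -0.31. At an unadjusted p under 0.05 the counts were 9 lower and 0 higher. Oas3, which makes the activator of RNase L, fell from 289, 325 and 322 to 179.6, 186 and 158, by 0.84 ± 0.08 on the log2 scale (SE). Oas2 fell by 0.60, Oas1a by 0.41, the Z-nucleic acid sensor gene Zbp1 by 0.36 and the DNA sensor gene Cgas by 0.43. Ifih1, which senses long double-stranded RNA, fell by 0.27. Without vehicle array 2 or 3 the count was 4, and Cgas (adjusted p = 0.058 and 0.0518 by limma) and Ifih1 (0.0585 and 0.0678) were among the calls lost, Ifih1 also without inhibitor array 1 (0.0613). Sting1 (-0.02), Mavs (0.10) and Rigi (-0.18), named after their values were seen, did not pass.

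Cytokine and other genes that Toll-like receptors induce were higher in 12 of 20 cases and lower in 1, with a median of 0.40. At an unadjusted p under 0.05 the counts were 14 and 2. The count of higher genes was 10 to 12 with an array left out and 9 to 13 under other settings. Il6, with means of 20.4 and 25.8 near the floor of 16, was called in 7 of 14 alternatives. Il10 was called in 2 of 6 fits with an array left out. Both were named after their values were seen. Il1a rose by 1.96 ± 0.07, Acod1, the enzyme that makes itaconate, by 1.62 ± 0.06 and Il1b by 1.08 on the log2 scale (SE where given). Cxcl2 rose by 1.06, Ccl5 by 0.96 and Cd86, a T cell co-stimulator, by 0.90. The gene called lower was Ptgs2 (-0.33, named after its value was seen), whose call was lost without vehicle array 2 or 3 (adjusted p = 0.0767 and 0.0713 by limma). Ifnb1 (0.11) and Il12b (0.16), named after their values were seen, did not pass.

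**Figure D4:**
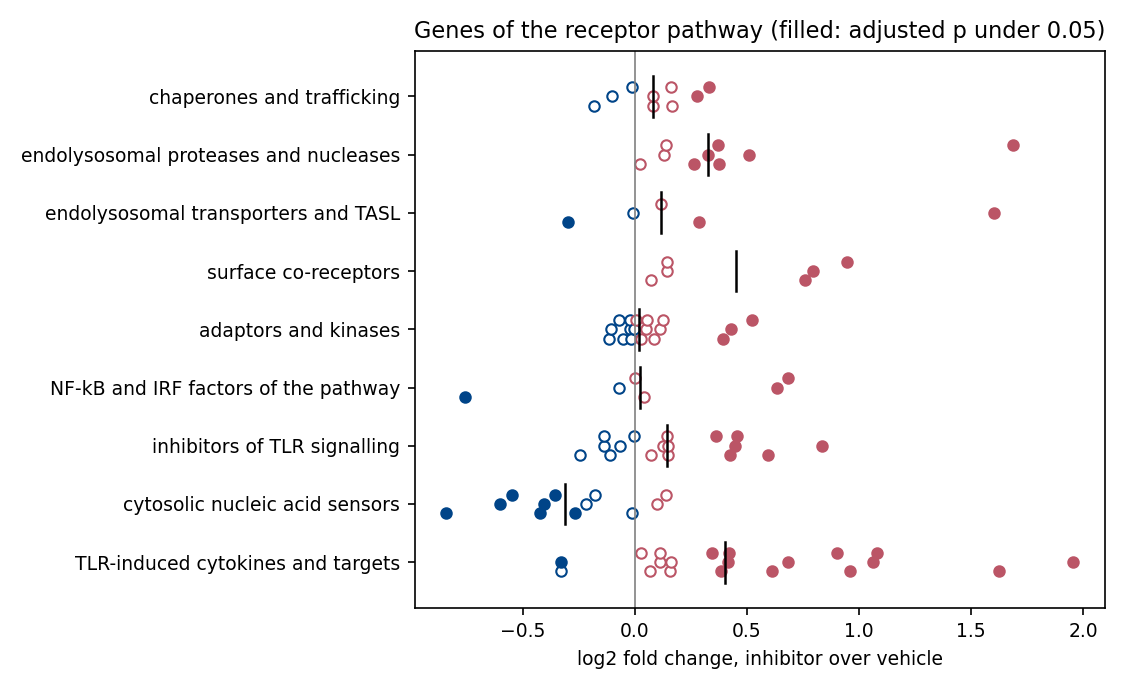
Log2 fold change of each gene of 9 pathway lists, 1 point a gene, red above 0 and blue below, filled where the adjusted p was under 0.05, with black bars at the list medians. The cytosolic sensors have their median at -0.31 and no filled point above 0, and the surface co-receptors have theirs at 0.45.

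Markers of the cell types in which these receptors are known were read on the same arrays. Over all genes tested, limma called 7.1% higher and 6.75% lower. At an unadjusted p under 0.05 these shares were 13.3% and 13.9%. Monocyte and macrophage markers were called higher in 7 of 10 cases and lower in none, also at an unadjusted p under 0.05, with a median log2 fold change of 0.50. Their summed intensity was 9678 to 9979 with vehicle and 15348 to 16319 with the inhibitor. Such sums weigh bright genes most, here Lyz2, which averaged 4046 with vehicle and 5522 with the inhibitor. Csf1r rose by 1.23, Adgre1 by 1.43 and Itgam by 0.69. Fcgr1 (0.23), Cx3cr1 (-0.12) and Ccr2 (-0.05), named after their values were seen, did not pass. Neutrophil markers were higher in 6 of 10 cases and lower in none, with 7 and 0 at an unadjusted p under 0.05. Their summed intensity, to which Ngp and S100a8 gave most, was 5878 to 5959 with vehicle and 8644 to 9315 with the inhibitor. Ngp rose by 0.74, S100a9 by 0.72 and S100a8 by 0.84. Cxcr2 (0.27), Ltf (0.02), Retnlg (0.05) and Cebpe (-0.01), named after their values were seen, did not pass. The part of such a shift in the receptor results was not tested.

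Plasmacytoid dendritic cells and B cells are known for Tlr7 and Tlr9, and no marker of either was called higher over all arrays. Without inhibitor array 2 the B cell kinase gene Blk was called (0.36, limma adjusted p = 0.0237), beside 0.18 over all arrays. Of 9 plasmacytoid markers 1 was lower, Cox6a2 (-0.33, not without vehicle array 3, where adjusted p = 0.0519 by limma), beside 6.75% of all genes tested. The other 8 were not called. The summed intensity of the 9 was 3106 to 3299.97 with vehicle and 2745 to 2946 with the inhibitor. These sums mostly follow the brightest gene, Cox6a2, which averaged 1495 with vehicle and 1190 with the inhibitor. Of 9 B cell markers Igll1 was lower (-0.74), and Cd79a (-0.33) was called with quantile scaling (adjusted p = 0.0374 by limma) and median centring (0.0192), with sums of 983 to 1044 and of 907 to 1024. At an unadjusted p under 0.05 both lists had 2 lower and 0 higher, beside 13.9% and 13.3% of all genes tested. Counts this small in lists of 9 are near those shares. Among 9 conventional dendritic cell markers Itgax was called higher (0.41), a call lost without vehicle array 2 (0.0607) and inhibitor array 3 (0.0524), with sums of 939.7 to 992 and of 956 to 1067. None of 6 T cell or 8 stromal markers was called by limma, and 0 of them at an unadjusted p under 0.05. T cell sums were 642 to 753 with vehicle and 603 to 729 with the inhibitor, and stromal sums were 853 to 992 and 824 to 943. No marker read 0 on any array.

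**Figure D5:**
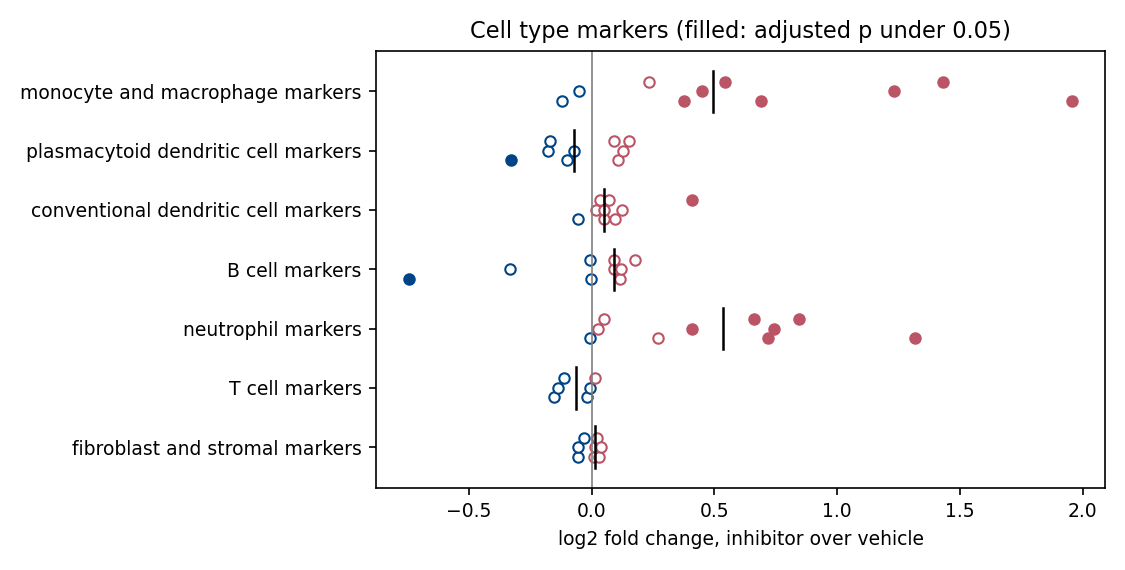
Log2 fold change of each gene of 7 cell type marker lists, 1 point a gene, red above 0 and blue below, filled where the adjusted p was under 0.05, with black bars at the list medians. Monocyte and macrophage markers have their median at 0.50 and neutrophil markers at 0.53, while the other medians lie between -0.07 and 0.09.

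The genes whose pattern over the 6 arrays was most like that of Tlr8 and Tlr2 were found by the Euclidean distance of log2 values centred on each gene's mean. Predicted genes and the receptor genes themselves were left out. Nearest to Tlr8 were Treml4 (distance 0.27), Clec4d (0.29), Cfb (0.30) and Gpr137b (0.38), with log2 fold changes of 2.05 to 2.31. Nearest to Tlr2 were Il1f9 (0.06), Slc7a11 (0.07), the oxidase subunit gene Cybb (0.09) and Plek (0.11), with log2 fold changes of 0.98 to 1.02. With 2 groups of 3 arrays this distance mostly compares the size of the change.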

How the data were processed

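Per the submitters' processing notes, the authors used Affymetrix Expression Console to make the deposited intensity values. Its version and algorithm, the normalization and the genome build are not stated. The values span 0.71 to 8186 and were read as linear. No scaling was applied in the main setting, values below 16 (5.94% of all) were set to 16, and log2 was taken, which understates changes of dim genes. Probe sets were named through the platform annotation, with symbols updated by Entrez number for 21698 of 21789 probe sets with 1 symbol; 1621 with several symbols and 12102 not listed were left out. For 999 genes with several probe sets, the brightest was used. The groups were compared by limma's lmFit and eBayes (version 3.58.1, R 4.3.3) without covariates, 2-sided, with Benjamini-Hochberg adjustment over 19847 genes and a threshold of 0.05. The fit was tested on simulated arrays. SE and intervals are those of the fit.

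Members and lists were chosen with earlier results of these data known. Named genes were all members, 14 fixed pathway genes, up to 6 called genes of each pathway list and 3 of each marker list by smallest p, and the 4 genes nearest in pattern to the most changed receptor of each class. Of the listed pathway and marker genes 15 are not analysed here. The symbols Rigi and Tasl were matched through older names. Alternatives were a replicate block, quantile and median scaling, floors of 1, 32 and 64, log2 of intensity plus 16, 2 filters on dim genes, the mean of probe sets, an intensity trend with robust prior, array weights, and leaving out each array.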

Additional observations from a re-analysis of the deposited data

How the results depend on the processing

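The count of receptor genes called higher was 6 over all arrays, 4 to 6 when an array was left out and 5 to 7 under the other settings, and none was called lower under any of them. The endosomal minus surface difference of median log2 fold changes moved from 0.85 to between 0.79 and 0.88. It was unchanged with the replicate block, median centring, the other floors, the weaker filter on dim genes, the mean of probe sets and the intensity trend. Most of these settings cannot alter it, so its narrow range there says nothing of its stability. Above the median intensity it could not be given, because Tlr8 and Tlr9 are not tested there. Pathway genes called higher numbered 36, and 31 to 34 with an array left out. Pathway genes called lower numbered 10, and 5 to 12 with an array left out, with 5 without vehicle array 2 or 3. No call changed direction. An uncalled gene whose estimate changed sign was counted as kept, as for Irf1 (log2 fold change -0.11 to 0.07 over the alternatives). Among the single genes and lists, 3467 comparisons with an alternative kept their side of the threshold or, for counts, stayed within 1.5 times. In the others, 72 lost a call, 57 gained one and 43 counts moved by over 1.5 times. Same-numbered arrays of the groups correlated at 0.24, 0.13 and -0.09 in their deviations from the group means. Vehicle arrays 1 and 2 correlated best with the inhibitor array of the same number, and vehicle array 3 with inhibitor array 2. These values do not settle whether the numbers pair the samples, and the main fit took no pairing. With the replicate number as a block, 5 receptor genes were called (Tlr6 at adjusted p = 0.0556). The block also ended the calls of Rab11a (adjusted p = 0.0513), Tasl (0.0708), Tnip3 (0.0686), Ptgs2 (0.0528), Itgax (0.054), Dhx58 (0.0648) and Il6 (0.0571) by limma. In this fit 33 pathway genes were called higher and 7 lower, and 8.46% of all genes against 13.9%. Over all genes the share called was 5.98% to 14.3% with an array left out and 8.46% to 39.7% under the other settings. The highest share came with genes above the median intensity alone. Rab11a, Tasl and Tnip3, whose calls were often lost, kept log2 fold changes of 0.24 to 0.31, -0.34 to -0.22 and 0.36 to 0.52. Inhibitors of receptor signalling called higher numbered 6 over all arrays and up to 10, and chaperone and trafficking genes 2 and 1 to 4. The table gives no signal over background, which limits what can be said of genes as dim as Tlr8 with vehicle.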

Other observations

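Of the 3 inhibitor arrays, array 3 held the lowest reading for 6 of the 9 receptor genes, array 1 for 2 and array 2 for 1, a count made after the values were seen. The 6 genes were Tlr1, Tlr3, Tlr6, Tlr7, Tlr9 and Tlr13.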
